A study of Mus musculus with 216 samples.

Results

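The kidney of 27 month old male C57B6/J-NIA mice was followed over 48 h of circadian time, and the genes whose RNA level rose and fell once a day were described by the hour at which they peaked. The samples are the 12 old kidney libraries, 1 for each circadian time from 18 to 62 in steps of 4 h, out of 216 libraries in the series, which covers 6 tissues at 3 ages. Each library pooled 2 samples, so there was 1 library per time and age, and a circadian time and the time 24 h later, such as 18 and 42, stood for the same hour of 2 successive cycles. The comparisons used 12 young kidney libraries (6 months), 12 aged kidney libraries (18 months) and 12 old heart libraries (27 months) from males of the same strain. The labels give neither the lighting before or during collection nor how many mice contributed to the tissues of 1 time, and whether the kidney and heart of 1 time came from the same mice is not given. In such whole-organ RNA, fewer cells of a type and less RNA per cell cannot be told apart.

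The daily clock runs in most cells of the body as a loop of transcription factors. BMAL1 (gene Arntl) with CLOCK or NPAS2 switches on the Per and Cry genes through a DNA element called the E-box, and the PER and CRY proteins then hold BMAL1 back. In a second arm, the REV-ERB proteins (Nr1d1, Nr1d2) repress Arntl through an element in its promoter, and the PAR bZIP factors DBP, TEF and HLF compete with NFIL3 for the D-box. In the kidney, this clock is known for daily swings in filtration, in the reabsorption of sodium and glucose and in blood pressure. For a nocturnal animal, circadian time 12 is by convention the start of the active phase.

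Total counts of the old kidney libraries ranged from 5200916 to 19974416, against 21240585 to 24777010 in young and 19484166 to 23291284 in aged kidney. The old kidney libraries were thus shallower than every kidney library of the other ages except that at circadian time 38, whose total lay within the aged range, and a count of rhythmic genes is not compared between ages here without a test of the difference itself. No 2 of the 12 libraries held the same counts, since the closest pair differed by a chi-square of 5.1 per degree of freedom. Markers of kidney cells were present in every library: the summed level of 5 proximal tubule genes (Slc34a1, Lrp2, Kap, Slc5a2, Slc22a6) lay between 8740 and 12900 CPM (the count of a gene scaled to the library's total), and that of 5 podocyte genes between 455 and 552 CPM. When each library's hour was read back from its 18 clock genes and the young and aged time course, it lay between 2.75 h before and 0.25 h after its label, with the library at circadian time 22 the furthest away and all others within 1.25 h.

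A cosine with a 24 h period was fitted to each of 17184 genes by edgeR's quasi-likelihood test, in 1 fit over the 36 kidney libraries with its own mean, amplitude and peak time for each age, so that the 3 ages share the estimate of spread. A gene is called rhythmic where the adjusted p (Benjamini-Hochberg over all 17184 genes) is under 0.05. In old kidney 780 genes were rhythmic, or 4.54% of those tested, and 3339 had an unadjusted p under 0.05. Amplitudes are given from mean to peak on the log2 CPM scale, and an amplitude of 1 therefore means a 4-fold range from trough to peak. The median amplitude was 0.36 over the rhythmic genes against 0.14 over all genes tested, with quartiles of 0.25 and 0.57, and the median range from trough to peak was 1.65-fold. The median standard error of a peak time was 0.93 h.

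The rhythmic genes were spread around the day. Between circadian times 20 and 24 there were 155, the most of any 4 h window, and between 0 and 4 there were 71, the fewest. The windows from 4 to 8, 8 to 12, 12 to 16 and 16 to 20 held 147, 125, 149 and 133 genes. The largest swings fell late: 30 of the 63 genes with an amplitude over 1 peaked between 20 and 24 and 16 more between 16 and 20, whereas 1 gene of that size peaked between 12 and 16. That gene was Per2. Of the 63, 25 were still called with white fat markers as a term of the fit, 22 with the old libraries fitted alone, 39 at equal depth and 38 without circadian time 54. Fitted separately, the first cycle (circadian times 18 to 38) and the second (42 to 62) gave peaks within 4 h of each other in 758 of the 780 genes (97.2%), against 37.4% of all genes tested. The test used both cycles, so this is a description of the genes called and not a check of them.

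**Figure D1:**
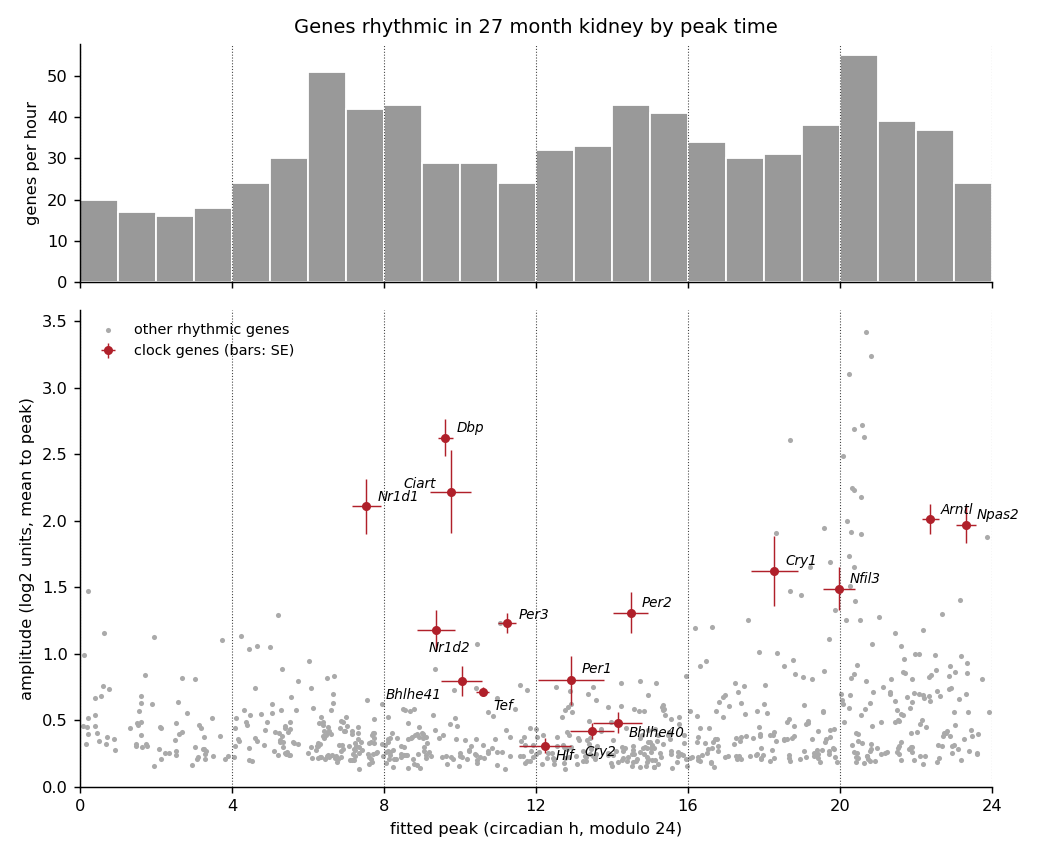
Upper panel, number of rhythmic genes per hour of fitted peak in 27 month kidney. Lower panel, amplitude (log2 units, mean to peak) against fitted peak (circadian h, modulo 24) for the 780 rhythmic genes, with 16 rhythmic clock genes in red and bars for their standard errors; the clock genes follow each other from Nr1d1 at 7.53 h to Npas2 at 23.3 h, and a column of genes with amplitudes over 1 stands near 20 h.

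The number of rhythmic genes depended on single libraries and on depth. Without the library at circadian time 18 the count was 2150, and without that at 54 it was 499. With the 12 old libraries fitted alone, so that the spread came from old kidney only, 171 genes passed, 152 of them among the 780. With the 3 kidney libraries of each time thinned to the lowest total of the 3, 368 passed, and 366 of those were among the 780.

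The clock itself ran in the old kidney. Of 18 genes listed as the core clock and its close partners, 17 were rhythmic, against 4.54% of all genes tested. Clock alone was not (amplitude 0.20 ± 0.11, adjusted p 0.215). Ordered by peak, Nr1d1 came first, followed by Nr1d2, Dbp, Ciart, Bhlhe41, Tef and Per3 between 9.36 and 11.2 h, then Hlf, Per1, Cry2, Bhlhe40 and Per2 between 12.2 and 14.5 h, then Cry1 and Nfil3 at 18.3 and 20 h, and last Arntl and Npas2. The same 17 genes were rhythmic without any 1 of the 12 libraries, and also once the level of white fat markers was a term of the fit. With the old libraries fitted alone 16 were, and Per1 had an adjusted p of 0.0678.

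Arntl, which encodes BMAL1, had a lowest level of 3.31 CPM at circadian time 58, a median of 22 and a highest level of 57.7 CPM at circadian time 22. Its amplitude was 2.01 ± 0.12 and its peak 22.4 ± 0.22 h (adjusted p 7.71e-09 by edgeR's quasi-likelihood test), a 16.3-fold range. The libraries at circadian times 18 to 26 and 42 to 50 were the high ones in both cycles, and those at 34 and 58 the low ones. Npas2, whose protein can take the place of CLOCK, ran from 2.05 to 36.9 CPM with a median of 10.3 and peaked at 23.3 ± 0.27 h.

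Dbp, a PAR bZIP activator and a direct target of BMAL1, stood opposite. Its lowest level was 6.83 CPM at circadian time 46, its median 57.0 and its highest 225 CPM at circadian time 34. Its peak was at 9.61 ± 0.20 h with an amplitude of 2.62 ± 0.14 (adjusted p 5.81e-15), a 37.9-fold range and the largest of the clock genes. At circadian times 30 to 38 and 54 to 62 all 6 libraries held more Dbp than any of the other 6, in each of which Arntl was higher than in any of the first 6. The related Tef was far more abundant and swung less, from 214 to 546 CPM (peak 10.6 ± 0.18 h, amplitude 0.71 ± 0.03), and Hlf less still (78.0 to 138 CPM, amplitude 0.31 ± 0.06). Nfil3, the D-box repressor, peaked at 20 ± 0.42 h, between 3.41 CPM at circadian time 54 and 37.8 CPM at circadian time 18.

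Nr1d1, the repressor REV-ERB alpha, had a lowest level of 6.59 CPM at circadian time 18, a median of 57.6 and a highest of 165 CPM at circadian time 30 (peak 7.53 ± 0.37 h, amplitude 2.11 ± 0.21, adjusted p 2.87e-06). Its relative Nr1d2 peaked at 9.36 ± 0.49 h. Ciart, a repressor of BMAL1, swung 21.6-fold between 0.577 and 19.9 CPM, with a peak at 9.76 ± 0.54 h.

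The negative limb of the loop followed in a row. Per3 ran from 19.9 to 102 CPM with a peak at 11.2 ± 0.24 h, Per1 from 16.7 to 82.4 CPM with a peak at 12.9 ± 0.87 h, and Per2 from 21.2 to 161 CPM with a peak at 14.5 ± 0.46 h. Per2 was highest at circadian times 38 and 62 (160 and 161 CPM) and lowest at 26, 50 and 54. Cry1, the late repressor, peaked at 18.3 ± 0.61 h with an amplitude of 1.62 ± 0.26, and its level fell to 1.72 CPM at circadian time 30 and 2.86 CPM at 54. Cry2 swung 1.79-fold with a peak at 13.5 ± 0.57 h.

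**Figure D2:**
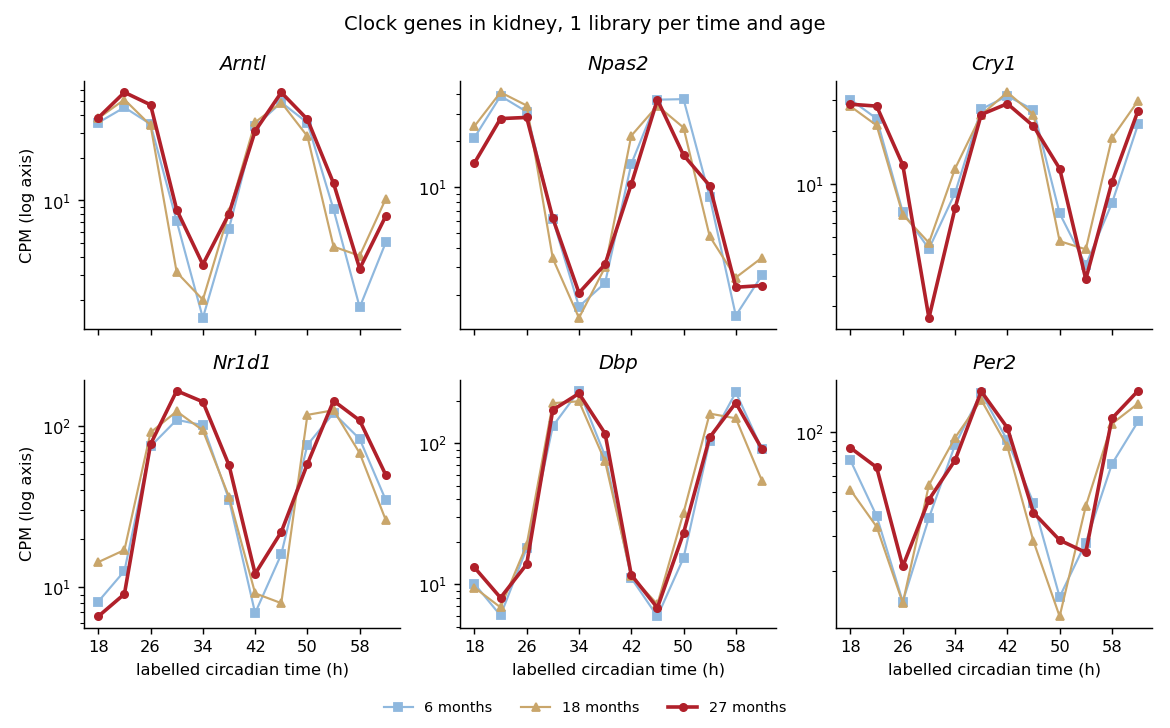
CPM on a log axis against labelled circadian time (h) for 6 clock genes in kidney, 1 point per library, at 6 (blue squares), 18 (brown triangles) and 27 months (red circles). In 27 month kidney Arntl and Npas2 were low where Dbp and Nr1d1 were high, and Cry1 and Per2 lay between them in time.

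The promoters of 4 of these genes are printed because they hold matches to elements through which the clock factors act, beside peaks at opposite hours. Sequences are from RefSeq (GRCm38.p6) and run 5′ to 3′ on the gene's strand, from 250 bases before to 50 bases after the annotated start, with the matches in capitals. The motifs searched on both strands were the E-box CACGTG, the D-box TTANGTAA and TNGGTCA, a loose form of the core of the REV-ERB element. N stood for any base, whereas the core of that element has A or G there. No match overlapped another in the 4 promoters. Of the 18 clock genes 15 had a promoter in the table, and 9 of these held at least 1 of the 3 motifs. The Ciart promoter (chr3:95882179-95882478, minus strand) has 3 E-boxes, and the Per3 promoter (chr4:151044616-151044915, minus strand) 2 D-boxes and a TNGGTCA match. The Arntl promoter at the downstream of its 2 listed starts (chr7:113207261-113207560, plus strand) has 3 TNGGTCA matches, and the Nfil3 promoter (chr13:52980990-52981289, minus strand) 1. A or G stands at N in the last Arntl match (TAGGTCA) and in the Nfil3 match (TGACCTA, its reverse complement). It does not in the other Arntl matches (TTGGTCA and TCGGTCA) or in that of Per3 (TGACCAA, the reverse complement of TTGGTCA).

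Ciart: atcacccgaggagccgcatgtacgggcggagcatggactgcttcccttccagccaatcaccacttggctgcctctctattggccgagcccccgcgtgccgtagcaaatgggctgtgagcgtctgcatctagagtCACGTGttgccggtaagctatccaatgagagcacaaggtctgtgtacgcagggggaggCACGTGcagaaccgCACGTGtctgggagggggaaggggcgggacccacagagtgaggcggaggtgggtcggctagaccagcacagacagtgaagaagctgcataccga

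Per3: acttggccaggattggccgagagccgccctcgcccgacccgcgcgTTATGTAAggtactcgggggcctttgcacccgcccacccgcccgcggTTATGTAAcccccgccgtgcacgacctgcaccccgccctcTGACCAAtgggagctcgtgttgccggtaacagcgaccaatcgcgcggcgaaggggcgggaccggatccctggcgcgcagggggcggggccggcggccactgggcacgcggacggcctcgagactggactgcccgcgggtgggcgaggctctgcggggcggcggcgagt

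Arntl: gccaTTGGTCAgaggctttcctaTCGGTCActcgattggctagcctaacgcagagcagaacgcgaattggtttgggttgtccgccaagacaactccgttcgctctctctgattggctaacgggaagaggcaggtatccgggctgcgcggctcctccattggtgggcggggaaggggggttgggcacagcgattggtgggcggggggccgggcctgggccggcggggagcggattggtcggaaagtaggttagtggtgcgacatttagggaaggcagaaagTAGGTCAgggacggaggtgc

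Nfil3: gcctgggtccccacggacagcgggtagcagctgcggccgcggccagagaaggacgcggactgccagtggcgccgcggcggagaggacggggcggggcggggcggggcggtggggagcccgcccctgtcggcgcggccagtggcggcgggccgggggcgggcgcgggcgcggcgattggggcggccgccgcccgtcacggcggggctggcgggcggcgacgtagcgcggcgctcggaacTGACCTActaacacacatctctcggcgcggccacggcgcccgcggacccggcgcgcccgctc

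Ciart, with E-boxes, and Per3, with D-boxes and a TNGGTCA match, peaked at 9.76 and 11.2 h. Arntl and Nfil3, with TNGGTCA matches, peaked at 22.4 and 20 h. Cry2, with 1 TNGGTCA match and neither other motif, peaked at 13.5 h, and Tef, with E-boxes and a TNGGTCA match, at 10.6 h. The TNGGTCA matches of Cry2 and Tef read TGACCAA, as that of Per3 does. The printed promoters were chosen after these values were seen. Cry1 holds 1 E-box in its window and peaked at 18.3 h, and Dbp and Nr1d1 hold none of the 3 motifs in theirs. Over all 32851 promoters of the table, 7.15% held the E-box, 2.32% the D-box and 10.96% a TNGGTCA match. Among tested genes with a listed promoter the shares were 11.2%, 1.95% and 11.7%, and among rhythmic genes 14.4%, 2.53% and 13.2%. By peak window, the E-box was most frequent in genes that peaked from 8 to 12 h (24 of 104, 23.1%). TNGGTCA was most frequent in those that peaked from 0 to 4 h (11 of 51, 21.6%). Both windows were picked out after the shares were seen, and a match in a promoter is no evidence that a factor binds there. The cyclic AMP element TGACGTCA was in 3.21% of rhythmic and 3.29% of tested genes, and the heat-shock element GAANNTTC in 7.095% and 7.20%.

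Genes known from other tissues as outputs of the clock peaked mostly in the hours after Dbp. Of 16 tested, 9 were rhythmic (56.3%, against 4.54% of all genes), with a median amplitude of 0.32 over the 16 members against 0.14 over all genes. Wee1, the kinase that holds back entry into mitosis, ran from 11.6 to 35.4 CPM with a median of 20.8 and peaked at 13.6 ± 0.38 h (amplitude 0.65 ± 0.07, adjusted p 1.11e-08). It was highest at circadian times 38 and 62, as Per2 was, and lowest at 22 and 26. Usp2, a ubiquitin hydrolase, peaked at 12.8 h, Coq10b, a coenzyme Q binding protein, at 11.6 h, Tspan4, a tetraspanin, at 13.4 h and Tsku, a secreted proteoglycan, at 12.9 h. Por, the electron donor of the cytochrome P450 enzymes, peaked at 12.1 h and Alas1, the first enzyme of heme synthesis, at 15.4 h. Lonrf3 (18.8 h) and Leo1, a subunit of the PAF1 complex of transcription (21.5 h), were the late members. Nampt, the enzyme of the NAD salvage pathway, was not called (amplitude 0.18, adjusted p 0.215). Por was not called with the white fat term (adjusted p 0.0826) and passed in 8 of the 12 fits that leave out 1 library. With the old libraries fitted alone Por, Alas1 and Tsku were not called (adjusted p 0.3, 0.156 and 0.0649), and the other rhythmic members were.

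Of 15 targets of glucocorticoid hormone tested, 4 were rhythmic (26.7%, against 4.54% of all genes), with peaks at 15.9 to 17.3 h, and the median amplitude of the 15 was 0.34. Tsc22d3, an anti-inflammatory target also called GILZ, ran from 32.3 CPM at circadian time 54 to 114 CPM at 38 with a median of 63.2 (peak 15.9 ± 0.40 h, amplitude 0.83 ± 0.09, adjusted p 7.06e-07). The libraries at 18, 22, 38, 42 and 62 were its 5 highest. Fkbp5, a co-chaperone of the receptor, ran from 64.7 to 254 CPM (16.8 ± 0.985 h, adjusted p 0.00115), Zbtb16, a transcription factor, from 3.23 to 26.5 CPM (16.6 ± 0.81 h, adjusted p 0.0347) and Sgk1, the kinase that raises sodium uptake in the collecting duct, from 68.9 to 133 CPM (17.3 ± 0.60 h, adjusted p 0.0183). With white fat markers as a term, Tsc22d3 and Fkbp5 stayed rhythmic and Sgk1 and Zbtb16 did not (adjusted p 0.0525 and 0.105). With the old libraries fitted alone Tsc22d3 and Sgk1 passed, and Fkbp5 (adjusted p 0.105) and Zbtb16 did not. Sgk1 and Zbtb16 were also not called without circadian time 30 (adjusted p 0.0534 and 0.0654), 42 (0.0727 and 0.0817) or 54 (0.0911 and 0.142), and Zbtb16 passed in 4 of the 12 fits that leave out 1 library. The list had 6 rhythmic members without circadian time 18. The other 11 included Mt2 (amplitude 0.44, adjusted p 0.107) and Cdkn1a (0.53 and 0.115).

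Chaperones of the endoplasmic reticulum were highest late in the active phase. Of 18 genes of the reticulum and the unfolded protein response, 9 were rhythmic (50%, against 4.54% of all genes). Of these 9, 8 peaked between 17.1 and 21.8 h. Hspa5, the reticulum's main chaperone BiP, ran from 355 CPM at circadian time 34 to 855 CPM at 50 with a median of 577 (peak 19.8 ± 1.4 h, amplitude 0.43 ± 0.16, adjusted p 0.0420). All libraries at circadian times 30, 34, 54 and 58 were below 450 CPM and no other library was. Creld2 (23.4 to 66.1 CPM, peak 19.0 ± 0.81 h), Sdf2l1 (7.08 to 25.4 CPM, 20.7 ± 0.74 h) and Hyou1 (88.4 to 250 CPM, 18.6 ± 1.0 h), which assist folding in the reticulum, swung by 2.35, 3 and 1.97-fold. Calr, the calcium-binding chaperone calreticulin, peaked at 20.8 h, the disulfide isomerases Pdia4 and Pdia6 at 19.4 and 21.8 h, and the stress factor Atf4 at 17.1 h. Herpud1, which takes part in the degradation of proteins of the reticulum, stood apart with a peak at 13.1 ± 0.57 h (adjusted p 6.70e-05). Beside this group, the white fat markers described below also fitted a peak near 20 h, and with them as a term 4 of the 9 remained: Herpud1, Creld2, Hyou1 and Pdia6. Of the 9, Herpud1, Creld2, Sdf2l1 and Pdia6 passed with the old libraries fitted alone. Of the 12 fits that leave out 1 library, Atf4 passed in 2 and Hspa5 and Pdia4 in 7 each. Hyou1 passed in 10, Sdf2l1 in 11 and Calr, Creld2, Pdia6 and Herpud1 in all 12. Without 1 library the number in the list ran from 5 (without circadian time 42, 54 or 58) to 13 (without 46).

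Of 15 heat-shock proteins and co-chaperones, 3 passed (20%, against 4.54% of all genes; 6 without circadian time 18): Bag3, a co-chaperone, at 15.0 h, Stip1, which links HSP70 and HSP90, at 19.3 h, and Ahsa1, an activator of HSP90, at 19.7 h, with amplitudes of 0.29, 0.25 and 0.25. With the white fat term Bag3 alone passed. Dnajb1, Hsp90ab1 and Hsph1 had adjusted p of 0.0505, 0.065 and 0.0713. None of the 3 passed without circadian time 54, and none without 42. Of the RNA-binding proteins that rise with cooling, Cirbp was rhythmic, between 31.9 CPM at circadian time 62 and 82.1 CPM at 34, with a peak at 5.38 ± 0.96 h (adjusted p 5.36e-03), and the other 2 genes of the list were not.

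Of 21 genes of sodium and potassium transport, 2 were rhythmic (9.52%, against 4.54% of all genes; 4 without circadian time 18): Slc9a3, the proximal sodium-hydrogen exchanger NHE3, and Atp1b1, the beta subunit of the sodium pump. Slc9a3 ran from 137 CPM at circadian time 18 to 248 CPM at 58 with a median of 182 (peak 9.13 ± 0.68 h, amplitude 0.33 ± 0.06, adjusted p 1.06e-03). The 5 libraries above 200 CPM were those at 30, 34, 38, 54 and 58. Atp1b1 was among the most abundant members, at 1370 to 2090 CPM, and peaked at 9.63 ± 0.93 h (amplitude 0.23 ± 0.06, adjusted p 3.78e-03). Slc9a3 had an adjusted p of 0.0580 with the white fat term, and Atp1b1 of 0.0296. With the old libraries fitted alone neither passed (adjusted p 0.218 for Atp1b1). Scnn1a, the alpha subunit of the epithelial sodium channel, lay just outside (amplitude 0.26 ± 0.09, peak 16.5 h, adjusted p 0.0518). The sodium-chloride carriers Slc12a1 and Slc12a3 and the kinases Wnk1 and Wnk4 had adjusted p between 0.360 and 0.701. None of 12 genes of acid and base transport passed, a list too short to set apart from the 4.54% of all genes.

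Of the lists of glucose transport and amino acid handling, 3 carriers were called. Slc6a19, which takes neutral amino acids back from the urine, ran from 263 CPM at circadian time 18 to 685 CPM at 34 with a median of 435 (peak 6.64 ± 0.45 h, amplitude 0.69 ± 0.08, adjusted p 4.50e-07). It was above 500 CPM at 30, 34, 50, 54 and 58 and below in every other library. Slc2a2, the glucose carrier GLUT2, ran from 130 to 236 CPM (7.31 ± 0.91 h, adjusted p 3.51e-03), and Slc2a5, the fructose carrier GLUT5, from 64.2 to 138 CPM (8.92 ± 0.62 h, adjusted p 1.05e-04). With the white fat term Slc6a19 and Slc2a5 stayed rhythmic and Slc2a2 did not (adjusted p 0.135). The same was seen with the old libraries fitted alone. Slc2a2 and Slc2a5 were the 2 called of 10 genes of glucose transport and gluconeogenesis (20%, and 4 called without circadian time 18). Among 17 genes of amino acid handling, 2 passed (11.8%), Slc6a19 and Gatm. Gatm, the first enzyme of creatine synthesis, peaked at 1.76 ± 1.4 h (adjusted p 0.0283). Over all genes, 4.54% were called.

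Among 11 genes of water and urea, 2 passed (18.2%, against 4.54% of all genes). Aqp3, the water channel of the basolateral side of the collecting duct, peaked at 9.81 ± 1.1 h (84.3 to 139 CPM, adjusted p 0.0401). Aqp3 passed in 4 of the 12 fits that leave out 1 library. Avpr1a, the V1a vasopressin receptor, peaked at 21.8 ± 0.49 h (5.47 to 16.2 CPM, adjusted p 1.93e-04) and passed in all 12. The other 9, Aqp2 among them (adjusted p 0.860), did not pass. Avpr1a was below 10 CPM at 30, 34, 38, 54, 58 and 62 and above 13 CPM at the other 6 times. In the lists of phosphate and calcium, organic ions, and blood pressure hormones, 1 gene each passed, of 15, 19 and 17. These shares (6.67%, 5.26% and 5.88%) lay near the 4.54% of all genes. The genes were Slc20a1, a phosphate carrier (11.9 h), Slc22a5, the carnitine carrier OCTN2 (12.5 h), and Hsd11b2 (15.8 h). Slc20a1 and Slc22a5 each passed in 6 of the 12 fits that leave out 1 library. Hsd11b2 shields the mineralocorticoid receptor from cortisol-like hormones. Hsd11b2 was highest at circadian time 38 (184 CPM against 87.1 to 134 elsewhere) and its adjusted p was 0.0619 without that library, which is also the one with most Havcr1, a marker of injured tubules (146 CPM against 9.95 to 18.5 elsewhere). The part of that injury marker in the result was not tested.

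In fat and sterol metabolism, 2 genes passed in each of 2 lists. Cpt1a, the gate for fatty acids into mitochondria, peaked at 11 ± 1.1 h (453 to 741 CPM, adjusted p 0.0225) and Slc25a20, the carnitine carrier of the mitochondrial membrane, at 16.3 ± 0.85 h (59.3 to 92.1 CPM, adjusted p 7.33e-03), 2 of 23 genes of fatty acid oxidation (8.70%, against 4.54% of all genes). Insig1, which holds back sterol synthesis, peaked at 22.8 ± 1.4 h and Sqle, an enzyme of that synthesis, at 4.05 ± 1.5 h, 2 of 18 genes of sterol and fatty acid synthesis (11.1%). Without circadian time 26, 34, 50 or 58 neither passed (adjusted p 0.0575 to 0.0883 for Insig1 and 0.0555 to 0.186 for Sqle). Fasn and Scd1, of fatty acid synthesis, had large fitted swings that did not pass (amplitudes 0.93 and 0.80, adjusted p 0.0723 and 0.125). Hmox1, which breaks down heme, was the only rhythmic gene of 21 in detoxification (4.76%, near the 4.54% of all genes). It peaked at 17.9 ± 0.76 h (adjusted p 9.88e-03) and was not called with the white fat term (adjusted p 0.0994). With the white fat term Cpt1a, Sqle, Aqp3, Slc20a1 and Slc22a5 were not called either (adjusted p 0.102, 0.084, 0.0895, 0.137 and 0.0884). Cpt1a passed in 7 of the 12 fits that leave out 1 library, and not with the old libraries fitted alone. None of 9 mitochondrially encoded and 14 interferon and inflammation genes passed. With 4.54% of all genes called, lists so short cannot show that rhythm is absent. Single genes passed of 14 in ribosome biogenesis (7.14%, Nolc1, 14.9 h) and of 15 in extracellular matrix (6.67%, Ccn2, a matricellular growth factor, 15.5 h). Wee1 and Gadd45a, a gene of growth arrest (23.0 h), passed among 15 of the cell cycle (13.3%). Gadd45a had an adjusted p of 0.0954 with the white fat term.

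**Figure D3:**
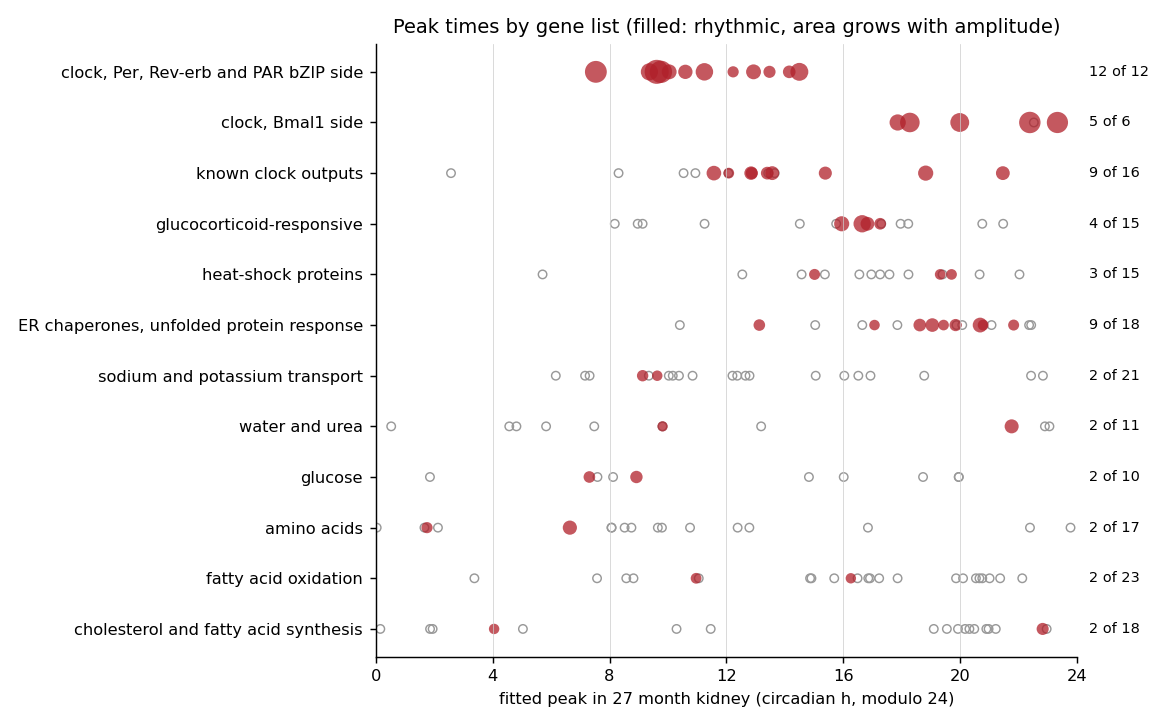
Fitted peak (circadian h, modulo 24) of every tested member of 12 gene lists in 27 month kidney, filled where the gene was rhythmic (area grows with amplitude) and open where it was not, with the number rhythmic of those tested on the right. The 2 clock lists lie on opposite sides of the day, glucocorticoid targets that passed lie between 15.9 and 17.3 h and most chaperones of the endoplasmic reticulum that passed between 17.1 and 21.8 h.

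Outside the lists, the genes of largest amplitude per 4 h window with at least 1 CPM were taken. From 0 to 4 h they were Aqp8, a water channel (0.250 to 3.86 CPM, peak 0.21 ± 0.41 h, adjusted p 4.49e-04), the predicted genes Gm30162, Gm16146 and 5730437C11Rik, and the immunoglobulin segment Igkv10-94. The last rested on 1 library: it held 132 CPM at circadian time 26 and at most 15.5 CPM elsewhere, and its adjusted p was 0.917 without that library.

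From 4 to 8 h came Igfbp1, a binding protein of insulin-like growth factors, and Depp1, both known to respond to fasting through FOXO factors. Igfbp1 had a lowest level of 1.70 CPM at circadian time 22, a median of 7.75 and a highest of 30.3 CPM at 50 (peak 5.20 ± 1.1 h, amplitude 1.29 ± 0.37, adjusted p 0.0239). Depp1 ran from 3.27 to 26.1 CPM and peaked at 4.23 ± 0.98 h (adjusted p 0.00573). Both were highest at 26, 30, 34, 50 and 54. The other 3 of this window, 2410003L11Rik, Als2cr12 and Rnf212b, had means of 1.5 to 3.8 CPM. Igfbp1 was not called with the white fat term (adjusted p 0.122) and passed in 7 of the 12 fits that leave out 1 library.

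From 8 to 12 h the largest were Gm45909, Coq10b, Upp2, Cpeb3 and Lonrf1. Cpeb3, which regulates translation through the poly(A) tail, had the smallest p of the 5: it ran from 23.1 to 74.3 CPM with a median of 45.0, and peaked at 9.85 ± 0.33 h (amplitude 0.73 ± 0.06, adjusted p 2.12e-09). Upp2, a uridine phosphorylase, ran from 10.7 to 33.0 CPM (10.4 ± 0.50 h). From 12 to 16 h they were Tsc22d3, Nat8f6, Hhipl1, Fgf18 and Sorcs1. Nat8f6, of a family of acetyltransferases, ran from 49.7 to 150 CPM and peaked at 14.2 ± 0.61 h (adjusted p 1.11e-04), below 60 CPM at 26, 30, 46, 50 and 54 and above 90 CPM at every other time. Sorcs1 rested on circadian time 38, where it held 4.86 CPM against at most 1.86 elsewhere (adjusted p 0.407 without it).

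The genes of largest amplitude between 16 and 24 h moved with markers of other tissues. From 16 to 20 h they were Nnat, a membrane proteolipid, Timp4, an inhibitor of matrix proteases, Thbs4, a matrix protein, Igfbp6, a binding protein of insulin-like growth factors, and Plin4, which coats lipid droplets. Plin4 was at 27.5 to 65.4 CPM at circadian times 18, 22, 26, 42, 46 and 62 and at 4.02 to 10.5 CPM at 30, 34, 38, 50, 54 and 58 (amplitude 1.65 ± 0.41, peak 19.2 ± 0.95 h, adjusted p 0.0209). Nnat was at 4.06 to 13.5 CPM in the first 6 of these libraries and at most 0.745 CPM in the other 6. The same 6 libraries held the RNA of white fat: the summed level of Adipoq, Plin1, Cfd and Lep, which code for adiponectin, perilipin 1, adipsin and leptin, was 188 to 285 CPM in them and 6.74 to 33.3 CPM in the other 6. All 4 of these markers were detected in old kidney, with Lep at 0 at circadian times 34 and 58. Their fitted peaks in old kidney lay between 19.8 and 20.2 h, with 0 of 4 called (adjusted p 0.0674 to 0.181), while 3 of 4 were called in young and 4 of 4 in aged kidney. The part of fat in these rhythms was not tested. With the level of the fat markers as a term of the fit, adjusted p was 0.103 for Nnat, 0.771 for Timp4, 0.0838 for Thbs4, 0.8 for Igfbp6 and 0.0213 for Plin4. Of all 780 rhythmic genes 366 remained in that fit. By window the share that remained was 73.2% from 0 to 4 h, 29.9% from 4 to 8, 44.8% from 8 to 12, 71.1% from 12 to 16, 31.6% from 16 to 20 and 42.6% from 20 to 24 h. Since the marker level itself follows the hour, this fit also takes away rhythm that runs in or against its phase.

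From 20 to 24 h they were Igkv14-126, Ighv11-2, Orm1, Apoa1 and Cd209f. Apoa1, the main protein of high-density lipoprotein, and Orm1, an acute-phase protein, are made chiefly in liver. Apoa1 was at 56.7 and 35.6 CPM at circadian times 18 and 22 and at most 4.53 CPM elsewhere, and the summed liver markers were at 457 and 487 CPM in those libraries against 15.7 to 60.1 CPM elsewhere. Without those 2 libraries the adjusted p was 0.548 for Apoa1 and 0.0583 for Orm1. Cd209f, a lectin of macrophages, was at 3.9 to 7.11 CPM in the 6 libraries with fat markers and at most 0.313 CPM in the others (adjusted p 0.794 with the fat term).

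Some genes of B cells stood out in 1 library. Of 6 markers of B and plasma cells 4 were rhythmic (66.7%, against 4.54% of all genes). Among them were Ms4a1, Cd79a and Cd79b, with peaks at 22.1 to 22.5 h. Ms4a1 held 18.4 CPM at circadian time 46 and 0.751 to 2.72 CPM elsewhere, and the adjusted p values of these 3 were 0.176 to 0.58 without that library. The summed level of all 6 markers was highest at 46 too (1310 CPM), but it was also 1120 CPM at 26 and 814 CPM at 30, with 304 CPM as the lowest. T cell and macrophage markers were also highest at 46 (55.3 CPM against 11.9 to 19.8, and 618 CPM against 206 to 429). Igkv14-126 and Ighv11-2, immunoglobulin segments, were highest at 46 too (50 and 19.9 CPM), and leaving out single libraries gave adjusted p of at most 0.0171 for the first and 0.0582 for the second. No marker list of podocytes, of tubule segments or of endothelium had a rhythmic member in old kidney. These lists held 3 to 5 tested genes each. With 4.54% of all genes called, 0 of so few is no result about these cells.

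**Figure D4:**
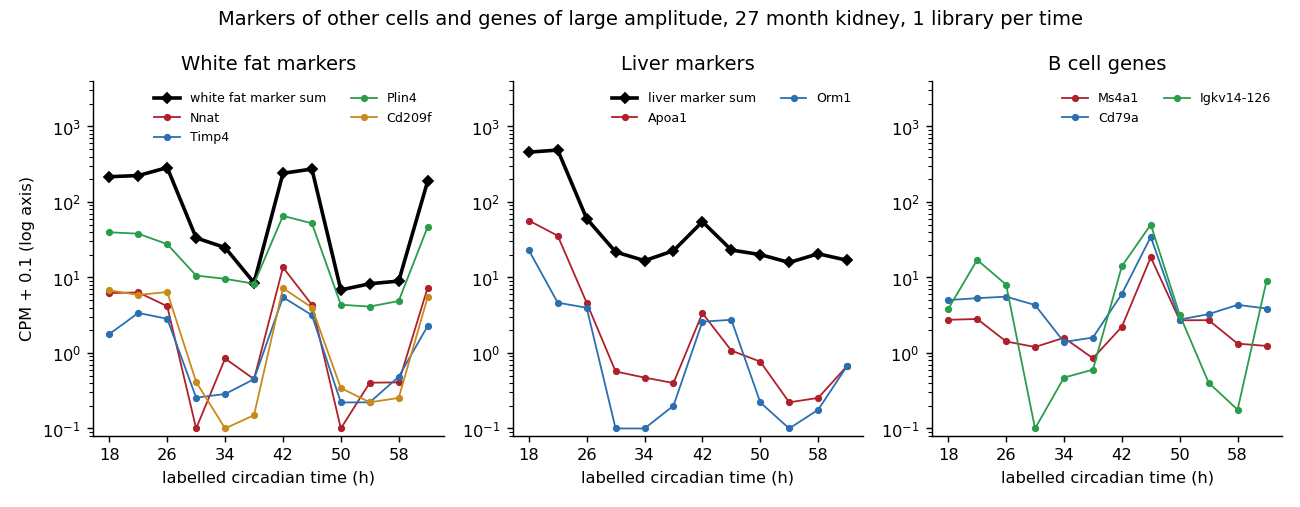
CPM plus 0.1 on a log axis against labelled circadian time (h) in the 12 libraries of 27 month kidney. Left, summed white fat markers (black) and 4 genes of large amplitude, high together at 18, 22, 26, 42, 46 and 62; middle, summed liver markers (black) with Apoa1 and Orm1, highest at 18 and 22; right, B cell genes, highest at 46.

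A second daily peak was looked for with a 12 h term beside the 24 h term. It passed for 21 of 17184 genes (0.122%), with 1336 at an unadjusted p under 0.05, and 14 of the 21 had their first peak between 0 and 4 h. Cyp27b1, the kidney enzyme that makes active vitamin D, had a lowest level of 5.48 CPM, a median of 16.2 and a highest of 36.6 CPM, and peaked at 1.35 and 13.3 h (12 h amplitude 0.97, adjusted p 3.87e-03). Its 4 highest libraries were those at 26, 38, 50 and 62, and its lowest those at 30 and 54. Ugt1a2, a conjugating enzyme, rested on circadian times 26 and 50 (26.9 and 54.2 CPM, at most 8.71 elsewhere; adjusted p 2.43e-04), and Cbr1, a carbonyl reductase, and Slc22a29, an organic ion carrier, were likewise highest there. Pzp, a protease inhibitor, was lowest at 50 and 26. Without circadian time 50 the number was 2, and without any 1 of 26, 34, 46, 54, 58 and 62 it lay between 4 and 13. Cry1 was among the 21 (adjusted p 0.0464).

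Against the younger kidneys, no gene's rhythm was shown to differ. In the same fit 1362 genes were rhythmic in young kidney (7.93% of those tested) and 1106 in aged kidney (6.44%). The old and young cosines differed for 0 of 17184 genes (0%) by edgeR, with 935 at an unadjusted p under 0.05 and 0 by DESeq2. Old and aged differed for 0 genes (0%), with 369 at an unadjusted p under 0.05 and 1 by DESeq2. These do not show that the rhythms were alike. The smallest p values between old and young at 1 CPM or more belonged to Xlr4a, Bank1, a B cell scaffold, and Mmp7, a protease (adjusted p 0.829 each), and between old and aged to Igkv19-93 (0.235) and Tgm1, a transglutaminase (0.992). Of the 780 genes rhythmic in old kidney, 453 were also called in young (58.1% of the old and 33.3% of the young list), 470 in aged (60.3% and 42.5%), and 370 at all 3 ages. Among the 227 called in old kidney only, 99 had an unadjusted p of 0.05 or more at both other ages, Ms4a1, Cd79a and Igkv14-126 among them.

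Fitted peaks lay near those of the younger kidneys. Of the genes called in young kidney, 1223 of 1362 (89.8%) peaked within 4 h of that time in old kidney, against 50.5% of all genes tested, with a median shift of -0.036 h. Of those called in aged kidney 1061 of 1106 (95.9%) did, and their median peak was 1.01 h later in old than in aged kidney. Dbp, for example, peaked at 9.61 ± 0.20 h in old, 9.59 h in young and 8.83 h in aged kidney, and Arntl at 22.4, 22.2 and 21.2 h. The comparisons of old kidney with young and with aged share the old libraries and are not independent of each other. Clock was called in young and aged kidney (amplitudes 0.45 and 0.26) and not in old (0.20), and the difference of old and young had an unadjusted p of 0.0244 and was not called. Hsd11b2 was not called in young and aged kidney (adjusted p 0.296 and 0.365), with 117 to 149 and 98.4 to 136 CPM. Of the lists, the 18 genes of sterol and fatty acid synthesis had 12 members called in young, 6 in aged and 2 in old. The 15 heat-shock proteins had 7, 9 and 3, against 7.93%, 6.44% and 4.54% of all genes. The 15 glucocorticoid targets had 9, 7 and 4, the 18 genes of the reticulum 11, 9 and 9 and the 16 clock outputs 11, 10 and 9. The 21 genes of sodium and potassium transport had 2, 4 and 2. The old libraries were shallower, so these counts do not test a difference. No member of any list had a difference between ages that was called.

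The heart of the same age was compared with the kidney in a separate fit of the 24 libraries. The cosines differed for 63 of 12401 genes expressed in both (0.508%), with 1457 at an unadjusted p under 0.05. Of the 63 genes, 30 were called rhythmic in kidney only and 20 in heart only, where the other tissue's fitted peak belongs to no called rhythm. In 11 both rhythms were called, and 4 of these, named after their values were seen, had peaks more than 6 h apart: Rhobtb1, Ccn2, Igfbp4 and Gdf10. Of 17 clock genes in this fit 15 were called in kidney and 16 in heart, and 6 differed. Each adjusted p for kidney against heart tests amplitude and peak together, so it does not test the peak alone. Fitted peaks of the activators were later in heart. Arntl peaked at 22.4 ± 0.21 h in kidney and 0.75 ± 0.32 h in heart (adjusted p 1.69e-03). Npas2 peaked at 23.3 and 2 h (adjusted p 0.00088), and its range in heart, 1.74 to 8.65 CPM, was narrower than in kidney. Arntl in heart was highest at circadian time 26 and in kidney at 22. Bhlhe40, a repressor that competes at E-boxes, peaked at 14.1 h in kidney and 8.21 h in heart (adjusted p 4.59e-03). Dbp peaked at 9.60 and 10.2 h and Hlf at 12.2 and 12.8 h, and their cosines differed: Dbp had an amplitude of 2.62 in kidney and 1.79 in heart (adjusted p 0.0207, but 0.069 with no filter on low counts and 0.0503 with a linear trend), Hlf of 0.30 and 0.86 (6.42e-03). For the other 11 clock genes no difference was called (adjusted p 0.0725 for Tef to 0.926 for Per1).

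Outside the clock, Rhobtb1 swung at different hours in the tissues. In kidney it ran from 52.7 CPM at circadian time 34 to 145 CPM at 46, with a median of 105 and a peak at 20.9 ± 0.33 h, and in heart from 90.4 CPM at 26 to 254 CPM at 38, with a median of 137 and a peak at 14.5 ± 0.31 h (adjusted p of the difference 1.55e-07). Its amplitude was 0.71 in both. Ccn2 peaked at 15.6 ± 0.61 h in kidney and 1.54 ± 0.71 h in heart, nearly opposite (adjusted p 0.000403). Slc16a1, the lactate carrier MCT1, swung in kidney (16.2 to 83.9 CPM, amplitude 0.9993) with no called rhythm in heart (315 to 419 CPM, amplitude 0.11), as did Cpeb3 (amplitudes 0.73 and 0.19), and Unc119b did the reverse (0.12 and 0.42), each with an adjusted p of 0.000403 for the difference. Cys1, a protein of cilia, peaked at 12.5 h in kidney and 17.1 h in heart (adjusted p 0.00088 for the difference of the cosines). With the time point as a block 31 genes differed, and without the old kidney libraries at 18, 30 or 42 the number was 136, 38 or 37.

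**Figure D5:**
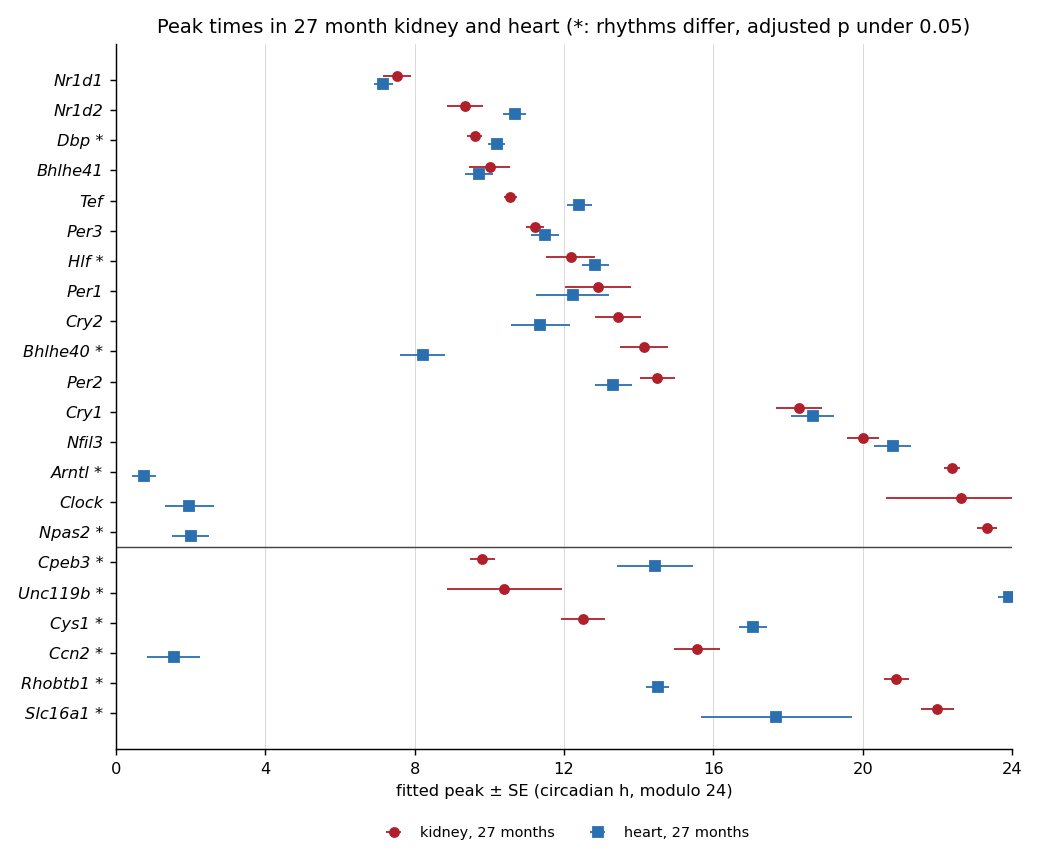
Fitted peak with its standard error (circadian h, modulo 24) in kidney (red circles) and heart (blue squares) at 27 months for 16 clock genes above the line and the 6 other genes of smallest p below it, with a star where the difference of the cosines was called. Arntl and Npas2 appear at the left edge in heart and at the right edge in kidney because 0 and 24 h are the same hour.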

How the data were processed

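Per the labels, tissue was homogenised in Trizol and poly(A) RNA-seq libraries were made, each from 2 pooled samples. The submitters' processing notes name HISAT2 and HTSeq and the builds GRCm38 and mm10; the use of strand is not given in the sources used here, so overlapping, antisense and near-identical genes, immunoglobulin segments included, are uncertain. The authors deposited 1 table of unnormalised read counts per gene name (55376 names) for the 216 libraries.

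Genes were kept by edgeR's filterByExpr (minimum count 10). TMM library sizes and edgeR 4.0.16 (R 4.3.3, robust quasi-likelihood fit) tested the cosine and sine of a 24 h period per age over 36 kidney libraries, and over 24 libraries for kidney against heart. Benjamini-Hochberg adjustment was over all genes of each test, which are two-sided. Amplitude, peak and their standard errors came from least squares on log2 CPM (prior count 2). With 1 library per time and age, p-values measure the spread around the cosine. The steps were tested on simulated data. Alternatives were DESeq2 1.42.0, other scaling, filters and thresholds, a linear trend, equal depth, a 12 h term, the old libraries alone, a time block, leaving out each library, and, chosen after seeing the data, white fat markers (Adipoq, Plin1, Cfd, Lep) as a term and leaving out circadian times 18 and 22. The genes named outside the lists are the 5 of largest amplitude per 4 h window with at least 1 CPM and peaks of the separate cycles within 4 h of the fitted peak, those of smallest p for the other comparisons, and list members. Pieces of this rule and the members and lists were chosen with earlier results of these data known. Results of 1 clock gene and 1 B cell marker, which the counts include, are not reported here.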

Additional observations from a re-analysis of the deposited data

Results flagged for a closer look

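The results below differed between old kidney and old heart by edgeR's quasi-likelihood test of the difference of the cosines itself, with Benjamini-Hochberg adjusted p over 12401 genes. Of these, 5 were clock genes and 6 were others. Adjusted p was 0.00169 for Arntl, 0.00088 for Npas2, 0.00459 for Bhlhe40, 0.00642 for Hlf and 0.0207 for Dbp, which was not called with no filter on low counts (0.069) or a linear trend (0.0503). It was 1.55e-07 for Rhobtb1, 0.000403 for each of Cpeb3, Ccn2, Unc119b and Slc16a1, and 0.00088 for Cys1. Rhobtb1 peaked at 20.9 h in kidney and 14.5 h in heart, Ccn2 at 15.6 and 1.54 h, and Arntl at 22.4 and 0.75 h.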

How the results depend on the processing

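The 780 rhythmic genes became 1820 with no filter on low counts, 171 with the old libraries fitted alone, 368 at equal depth, 302 at an adjusted p under 0.01, 377 with white fat markers as a term (366 shared) and 1764 without circadian times 18 and 22 (693 shared). Leaving out 1 library gave 499 (without 54) to 2150 (without 18; 751 shared). Other scaling, a CPM minimum, a trend, DESeq2 and a 12 h term gave 674 to 1095. The 21 genes with a 12 h rhythm became 596 with no filter, 7 with a trend, 89 by DESeq2, 4 at an adjusted p under 0.01 and 2 (without 50) to 26 (without 30) with 1 library left out. The 0 differences of old and young kidney became 871 with no filter and 0 to 1 (without 30) with 1 library left out. Those of old and aged kidney became 367 with no filter and 1 by DESeq2. The 63 differences from heart became 41 with no filter, 25 with a trend, 189 by DESeq2, 23 at an adjusted p under 0.01, 117 without circadian times 18 and 22 (55 shared) and 37 (without 42) to 136 (without 18) with 1 library left out. In each of these the cause was not tested, except that fewer samples or reads entered some fits. Over the 124 gene results with a fitted peak under the alternatives, that peak moved by at most 1.85 h.

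The labels do not say whether libraries of the same time share mice. The residuals of old kidney correlated with those of the same time at -0.141 to 0.137 in young kidney, -0.249 to 0.119 in aged kidney and -0.198 to 0.240 in old heart, with 1, 1 and 3 of 12 over 0.1, and 0, 2 and 0 of 12 matched their own time best. With the time point as a replicate block, 31 genes differed between kidney and heart (27 shared) and 0 between old and young or old and aged kidney. The depth of the old kidney libraries, 5200916 counts at the lowest, limits what genes of a few CPM can show.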
